A study of Mus musculus with 2 samples.

Results

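The levels of 7 miRNA genes that are known from red cells and liver, and not as cortex genes, were measured in left cerebral cortex of the mouse. The genes were chosen by symbol, with earlier results of these data known, and they are 7 of the 2202 miRNA genes in the deposited tables. Mir451a, Mir144 and Mir486 stand for red cells. Mir122, Mir192, Mir194-1 and Mir194-2 stand for liver, gut and kidney. The tissue came from B6CASTF1/J mice, a first-generation hybrid strain, aged 18 to 20 months, with no treatment given in the labels. There is 1 group of 2 biological replicates with 1 library each, made from total RNA with a size range under 30 nucleotides. The sex field says female and the free-text description says male. The libraries carry different biosample identifiers and the same donor identifier, so their spread may be technical. With 1 group there is no contrast between conditions, and the results are levels and the spread between the libraries.

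A miRNA is a short RNA cut from a hairpin precursor. Its seed, bases 2 to 8 from the 5′ end, pairs with target messages. Red cell precursors make large amounts of miR-451a and miR-144 from 1 shared transcript driven by GATA1, and mature red cells keep the miRNAs although they have no nucleus. miR-451a is an exception among miRNAs in that it is cut by Ago2 and not by Dicer. miR-486 lies within the gene of the red cell membrane protein ankyrin 1 and is also made in striated muscle. miR-122 is the dominant miRNA of hepatocytes, and miR-192 and miR-194 are made together in liver, intestine and kidney. The labels do not say whether the animals were perfused, which would wash blood from the vessels.

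RefSeq's miRNA table (GRCm38.p6) held 5 of the 7 genes. Mir486 and Mir122 were not matched. The 8 distinct mature sequences of the matched genes are shown because they bear on which reads can be assigned to a single gene, together with miR-215-5p, of the gene Mir215 beside Mir194-1, for its likeness to miR-192-5p. They are written 5′ to 3′ with the seed in capitals.
miR-451a: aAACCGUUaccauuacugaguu
miR-144-3p: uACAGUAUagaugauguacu
miR-144-5p: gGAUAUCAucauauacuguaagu
miR-192-5p: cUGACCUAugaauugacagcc
miR-192-3p: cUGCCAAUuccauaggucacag
miR-215-5p: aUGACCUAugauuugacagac
miR-194-5p: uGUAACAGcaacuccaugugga
miR-194-1-3p: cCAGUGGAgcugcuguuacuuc
miR-194-2-3p: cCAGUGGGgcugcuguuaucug

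The seeds of miR-451a and of both miR-144 arms were shared with no other mature miRNA of the table. miR-192-5p shared its seed with miR-215-5p alone, and the sequences differ by C1A, A12U and C20A, with positions counted from 1 at the 5′ end of miR-192-5p. miR-194-5p was present in full in the hairpins of both Mir194-1 and Mir194-2. Their other arms differ by A8G, C19U, U20C and C22G, counted from the 5′ end of miR-194-1-3p, and A8G lies in the seed. miR-194-2-3p shared its seed with miR-6926-5p and miR-7055-5p, whose genes Mir6926 and Mir7055 stood at means of 2.56 and 2.41 CPM (counts per 1000000 sense counts). Reads of miR-194-5p with no further bases therefore have more than 1 place in the genome, while reads of the 3p arms point to a single gene.

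The hairpins of the red cell cluster are shown in full because the place of the mature sequence in them differs. Capitals mark the mature sequences. Mir144 lies on the plus strand at chr11:78073005-78073070 and Mir451a on the plus strand at chr11:78073170-78073241 (GRCm38.p6).
Mir144: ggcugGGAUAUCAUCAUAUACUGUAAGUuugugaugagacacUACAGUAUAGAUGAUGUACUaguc
Mir451a: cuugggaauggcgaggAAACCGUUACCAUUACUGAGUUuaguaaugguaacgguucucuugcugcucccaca

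The Mir144 hairpin carries a mature miRNA on each arm. In the Mir451a hairpin of 72 bases the single mature miRNA covers bases 17 to 38 and runs past the middle of the hairpin.

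Of the 7 genes, 6 were expressed in both libraries, at 2 CPM or more, beside 18.6% of all miRNA genes. All 6 lay below the median of the expressed genes, 88.9 CPM. As a share of all sense counts, the red-cell genes together stood at 0.0122% in replicate 1, with a 95% exact interval of 0.0113% to 0.0132%, and at 0.00715% in replicate 2, with an interval of 0.00639% to 0.00798%. The share of the liver genes was 0.00948% (0.00866% to 0.0104%) and 0.00832% (0.00749% to 0.00921%). In bulk tissue, fewer cells of a type and less RNA per cell cannot be told apart. The source of the reads at these genes was not tested. The sense totals were 5166667 counts in replicate 1 and 4459993 in replicate 2, so that with 3 counts as the limit for a gene at 0 its level may reach 0.581 and 0.673 CPM. These limits, and all intervals, hold for counting error alone.

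The tissue label was checked against 14 miRNA genes of neurons and glia, of which 11 were expressed. Their sum was 83222 and 70004 CPM in replicates 1 and 2, led by the activity-induced Mir132, the neuronal Mir128-1 and Mir137. Mir132 alone stood at 42450 and 33684 CPM. The genes of miR-124, which defines neurons, were near 0: the highest of the 3, Mir124a-1, had 21 and 6 counts. Mir9-3, Mir9-1 and Mir9-2, also on this list, had means of 80.1, 17.6 and 2.51 CPM, below the median of the expressed genes. Reads with several places in the genome, which the tables list apart from gene counts, made up 41.8% and 46.4% of all reads.

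**Figure D1:**
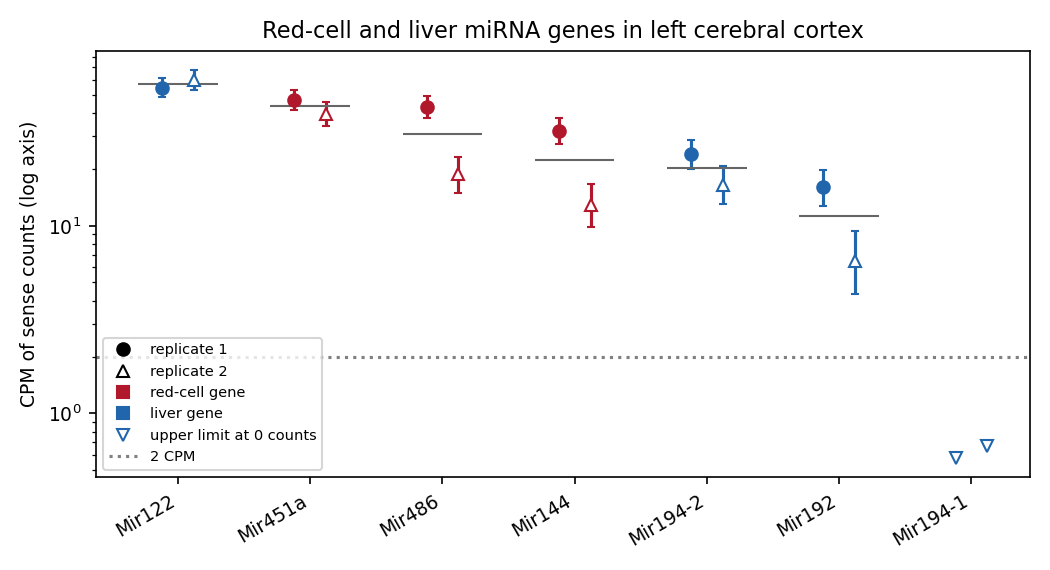
CPM of sense counts (log axis) of the 7 genes in replicate 1 (filled circles) and replicate 2 (open triangles), with exact 95% intervals for counting error and the mean as a grey line. Mir122 and Mir451a sit at 39.7 CPM or more in both libraries, Mir486, Mir144 and Mir192 are lower in replicate 2, and Mir194-1 had no count.

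Mir451a (ENSMUSG00000070065.1, intergenic in GENCODE M21) had 243 sense counts in replicate 1 and 177 in replicate 2, or 47.0 and 39.7 CPM, a mean of 43.4 ± 5.19 CPM (SD, n = 2). It was the highest of the red-cell genes and the most even of them between the libraries. Mir144 (ENSMUSG00000065401.1), 99 bases upstream on the same strand and also intergenic, had 166 and 58 counts, or 32.1 and 13.0 CPM (mean 22.6 ± 13.5). Both genes come from 1 transcript, but their counts did not keep 1 ratio. The share of Mir144 in the pair's counts was 40.6% in replicate 1, with a 95% exact interval of 35.8% to 45.5%. In replicate 2 it was 24.7% (19.3% to 30.7%), and these intervals do not overlap. They cover counting error alone, and how often other gene pairs differ so was not tested.

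Mir486 (ENSMUSG00000070084.3, chromosome 8, 23142555 to 23142682, plus strand of mm10) lies in an intron of Ank1, on the strand of that gene, and in an intron of the antisense gene Gm15816. It had 222 and 84 sense counts, or 43.0 and 18.8 CPM (mean 30.9 ± 17.1). Like Mir144 it was higher in replicate 1, with exact intervals for counting error that do not overlap (37.5 to 49.0 CPM and 15.0 to 23.3 CPM). By a test of counting noise alone, 34.5% of all genes tested were called higher in replicate 1. Relative to Mir451a, Mir486 made up 47.7% of the summed counts of both genes in replicate 1 (43.1% to 52.4%) and 32.2% in replicate 2 (26.6% to 38.2%).

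Both Mir451a and Mir486 have a miRNA gene on the opposite strand, so their values rest on the strand of the reads. Mir451b covers the same 72 bases as Mir451a and its hairpin is the exact reverse complement. It had 0 sense counts in both libraries. Its antisense counts, 243 and 177, are the sense counts of Mir451a listed again. Mir3107 overlaps Mir486 over 90 bases and had 8 and 6 sense counts, at 1.55 and 1.35 CPM. In the column without strand, Mir451a, Mir451b, Mir486 and Mir3107 were all at 0, and of the red-cell genes Mir144 alone kept its counts.

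The sequence of Mir486 limits its count further. A stretch of 22 bases of the gene occurs again in it as its reverse complement, and 2.09% of the 2202 miRNA genes hold an inverted stretch as long. A read inside such a stretch has a place on each strand. In Mir451a the longest inverted stretch was 16 bases, reached by 4.18% of genes, and in Mir144 it was 9 bases. Outside overlapping genes, the longest stretch shared with another miRNA gene was 11 bases for Mir451a, 13 for Mir144 and 13 for Mir486. How many reads of Mir486 were listed as having several places was not tested.

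Mir122 (ENSMUSG00000065402.1, chromosome 18, 65248861 to 65248926, plus strand), which lies in an exon of the long non-coding gene AC157910.3, was the highest of the 7 genes. It had 282 and 268 counts, or 54.6 and 60.1 CPM (mean 57.3 ± 3.90). It was the 1 gene of the 7 with a higher CPM in replicate 2, and its exact 95% intervals, 48.4 to 61.3 CPM and 53.1 to 67.7 CPM, overlap.

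Mir192 and Mir194-2 are neighbours on chromosome 19, on the plus strand with 115 bases between them, and are intergenic in GENCODE M21. Mir194-2 (ENSMUSG00000065582.1, 6264643 to 6264728) had 125 and 74 counts, or 24.2 and 16.6 CPM (mean 20.4 ± 5.38). Mir192 (ENSMUSG00000065523.1, 6264844 to 6264932) had 83 and 29 counts, or 16.1 and 6.50 CPM (mean 11.3 ± 6.76). Both were lower in replicate 2, and the ranges of the pair did not overlap, though their nearest values, 16.6 and 16.1 CPM, were close. Mir192 made up 39.9% of the pair's counts in replicate 1 (33.2% to 46.9%) and 28.2% in replicate 2 (19.7% to 37.9%), and these intervals overlap.

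Mir194-1 (ENSMUSG00000065581.1, chromosome 1, 185313319 to 185313385), in an intron of 2010103J01Rik and opposite an intron of Iars2, had 0 sense counts in both libraries. Its neighbour Mir215, 195 bases away, had 1 and 0 counts. With the limit of 3 counts in each library for Mir194-1, the count at Mir194-2 was at least 41.7-fold higher in replicate 1. In replicate 2 it was at least 24.7-fold higher. These folds take the count of Mir194-2 as it stands and leave out its counting error. The 22 bases of miR-194-5p are the longest stretch these genes share, so this comparison covers reads that are not confined to that arm. Mir215, whose seed miR-192-5p shares, was likewise at or under 1 count, so nearly all counts at the pair of genes with this seed were at Mir192.

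**Figure D2:**
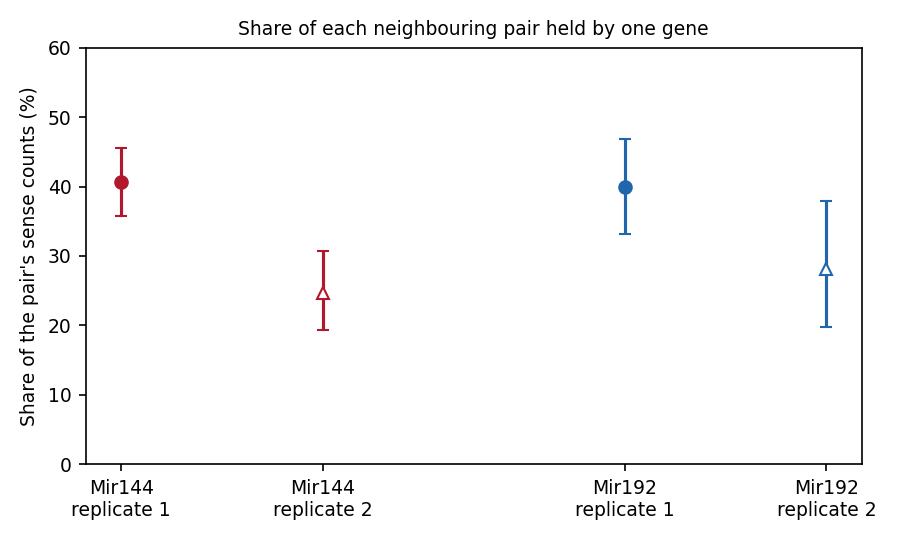
Share (%) of the summed sense counts of Mir144 and Mir451a held by Mir144 (red) and of Mir192 and Mir194-2 held by Mir192 (blue), by replicate, with exact 95% intervals for counting error. Mir144 held 40.6% in replicate 1 and 24.7% in replicate 2 without overlap of the intervals, while those of Mir192 overlap.

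By mean CPM the order was Mir122, Mir451a, Mir486, Mir144, Mir194-2, Mir192 and Mir194-1. A read holds a whole miRNA, so levels were not divided by gene length. Dividing by it exchanged Mir486 and Mir144 and left the other places as they were. The ranges over the libraries did not overlap between Mir122 and Mir451a, between Mir194-2 and Mir192, and between Mir192 and Mir194-1. The ranges overlapped between Mir451a and Mir486, Mir486 and Mir144, and Mir144 and Mir194-2, and the order of these neighbours is within their spread. Mir144 and Mir194-2 changed places in replicate 2, at 13.0 and 16.6 CPM.

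Among all 2202 genes, Mir122 ranked 222 by mean CPM, Mir451a 236, Mir486 255, Mir144 271, Mir194-2 278 and Mir192 309. Of the 409 expressed genes, 45.7% lay below Mir122 and 24.4% below Mir192. The genes nearest in mean level over the 2 libraries were Mir29b-1, Mir1298, Mir26a-1 and Mir24-2 around Mir122, at 56.2 to 58.9 CPM. Around Mir451a they were Mir7-1, Mir8112, Mir3093 and the muscle miRNA Mir206, at 41.8 to 45.0 CPM, and around Mir486 Mir1188, Mir6769b, Mir33 and Mir10b, at 30.1 to 31.7 CPM. Mir144 stood among Mir193a, Mir449a, Mir3064 and Mir103-2 at 21.8 to 24.0 CPM. Mir194-2 stood among Mir135a-2, the myeloid miRNA Mir223, Gm49347 and Mir141 at 20.1 to 20.7 CPM, and Mir192 among Mir5129, Mir6945, Mir7046 and Mir6953 at 11.2 to 12.2 CPM. Likeness here means a mean over 2 libraries and no shared pattern.

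**Figure D3:**
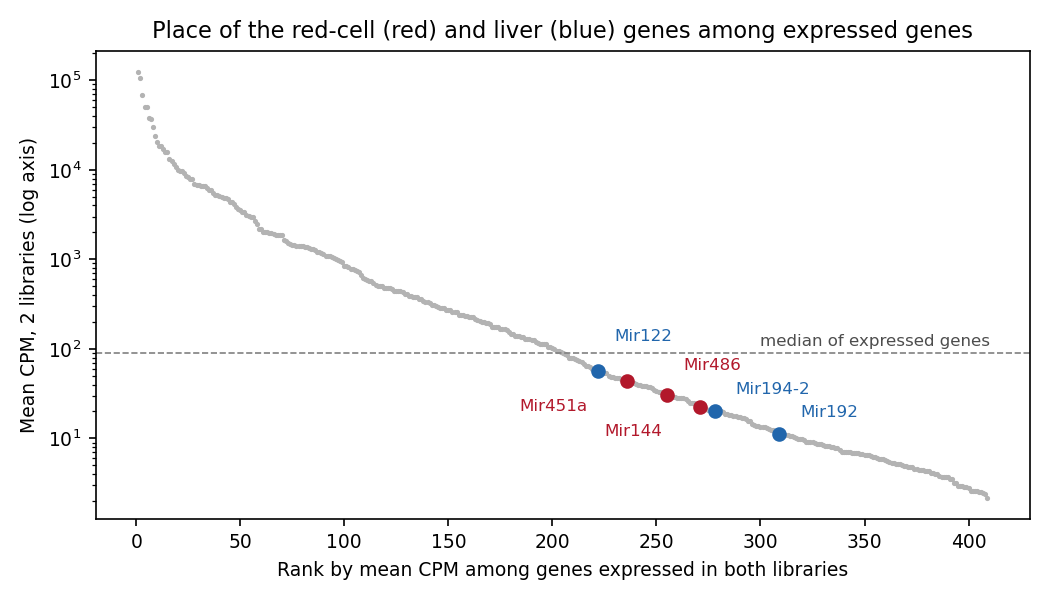
Mean CPM over the 2 libraries (log axis) of the 409 genes expressed in both, against their rank, with the red-cell genes in red and the liver genes in blue. The 6 expressed genes sit between ranks 222 and 309, below the dashed median of 88.9 CPM.

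The libraries were compared with each other, not as conditions, by a two-sided exact binomial test of each gene's pooled count against the TMM-scaled library totals, with Benjamini-Hochberg adjustment over the 438 genes whose counts in both libraries summed to 20 or more. The test knows counting noise alone. It called 4 of the 6 genes tested, beside 67.1% of all genes tested, so this share is near the background. Mir144, Mir486 and Mir192 were higher in replicate 1, a direction called in 34.5% of all genes tested, and Mir122 was higher in replicate 2 (32.6%). Mir194-1, with no count, was not tested.

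Mir144 had a log2 ratio of replicate 2 to replicate 1 of -1.17 (95% exact interval -1.63 to -0.74, exact binomial test, adjusted p = 5.25e-08). The ratio of Mir486 was -1.05 (-1.44 to -0.69, adjusted p = 5.05e-09, exact test) and that of Mir192 was -1.16 (-1.84 to -0.55, adjusted p = 0.000159, exact test). By point value these 3 genes differed over 2-fold, while the interval of each reaches under 2-fold. Of all genes tested, 27.2% differed over 2-fold by point value in either direction, and 19.2% with the higher level in replicate 1. Mir122 had a ratio of 0.27 (0.02 to 0.51, adjusted p = 0.0472, exact test), and it did not pass with raw totals (0.14, adjusted p = 0.318, exact test). Mir194-2 had a ratio of -0.41 (-0.85 to 0.01, adjusted p = 0.0770, exact test), which passed with raw totals (-0.54, adjusted p = 0.0165, exact test). Mir451a had a ratio of -0.11 (-0.40 to 0.17, adjusted p = 0.495, exact test).

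In edgeR's exact test, run with 1 common coefficient of variation of 44.9% for all genes, none of the 6 passed, with an unadjusted p between 0.259 and 0.953 over the 6. In that test 0.495% of 404 genes passed. The spread was estimated from the same libraries, so this is no replicated test.

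**Figure D4:**
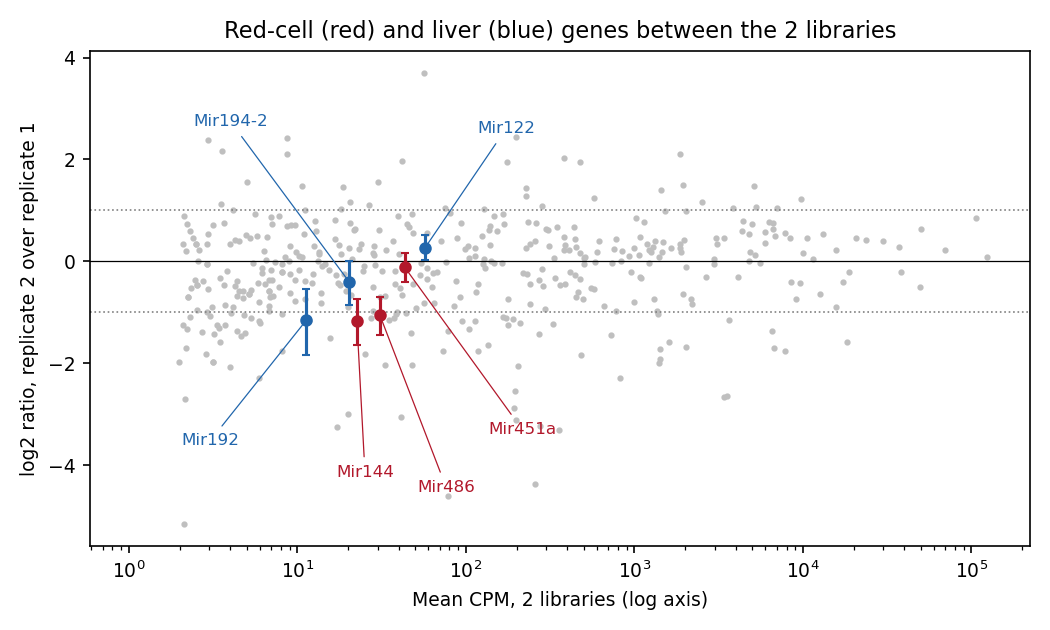
log2 ratio of replicate 2 over replicate 1 (TMM-scaled) against mean CPM (log axis) for the 438 genes tested (grey), with the red-cell genes in red and the liver genes in blue and their exact 95% intervals. Mir144, Mir486 and Mir192 lie past the dotted line of a 2-fold difference, which their intervals cross, within the cloud of the other genes.

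Other lists were measured beside the 7 genes. The red-cell genes summed to 122.1 and 71.5 CPM in replicates 1 and 2, and the liver genes to 94.8 and 83.2 CPM. A list of other red-cell miRNAs, most of them made in many tissues, summed to 843.5 and 494.2 CPM. In it 5 of 8 genes were expressed, led by Mir16-1, Mir15b and Mir16-2. The list includes Mir451b and Mir3107, the genes opposite Mir451a and Mir486, and neither was expressed. In that list 3 of 6 genes tested were called, all higher in replicate 1, beside 67.1% of all genes tested called and 34.5% called in that direction. Its median log2 ratio was -0.28, beside -0.08 over all genes tested and -1.05 over the 3 red-cell genes.

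White cell and platelet miRNAs summed to 1941 and 2008 CPM, 15.9-fold and 28.1-fold the sum of the 3 red-cell genes, with 6 of 6 genes expressed. Most of that sum was Mir150 and Mir146, at means of 1220 and 614 CPM. The median gene of the list stood at 57.6 CPM, beside 30.9 CPM for the red-cell genes. Mir150 of lymphocytes led, followed by Mir146 and the blood cell miRNA Mir142, and 4 of the 6 were called, all higher in replicate 2, beside 67.1% of all genes tested called and 32.6% called in that direction. The median log2 ratio of the list was 0.67. The vessel wall genes Mir126a, of endothelium, and Mir143 and Mir145a, of smooth muscle, summed to 26333 and 20307 CPM. Mir126a was called higher in replicate 1 and the other two higher in replicate 2. The part of blood content in these values was not tested, nor was the part of cells resident in the cortex.

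Beside the liver genes, other miRNAs of liver, gut and kidney summed to 1073 and 1361 CPM with 3 of 5 expressed. Most of that was Mir31, followed by Mir203, which is known from epithelium, and Mir148a. Mir148a was at 39.9 and 40.1 CPM, and the lowest of the list were Mir802, with 4 and 3 counts, and Mir215. The pancreas list summed to 311.6 and 260.1 CPM, nearly all of it Mir375, an endocrine miRNA, while Mir217, Mir216a and Mir216b did not reach the threshold. Striated muscle miRNAs summed to 25.5 and 77.4 CPM with 2 of 8 expressed, Mir206 and Mir499. Mir208a followed with 0 and 4 counts and the other 5 were at 0. The sums of the red-cell and liver genes thus lay between those of the muscle and the pancreas lists in replicate 1. In replicate 2 the muscle sum exceeded that of the red-cell genes.

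**Figure D5:**
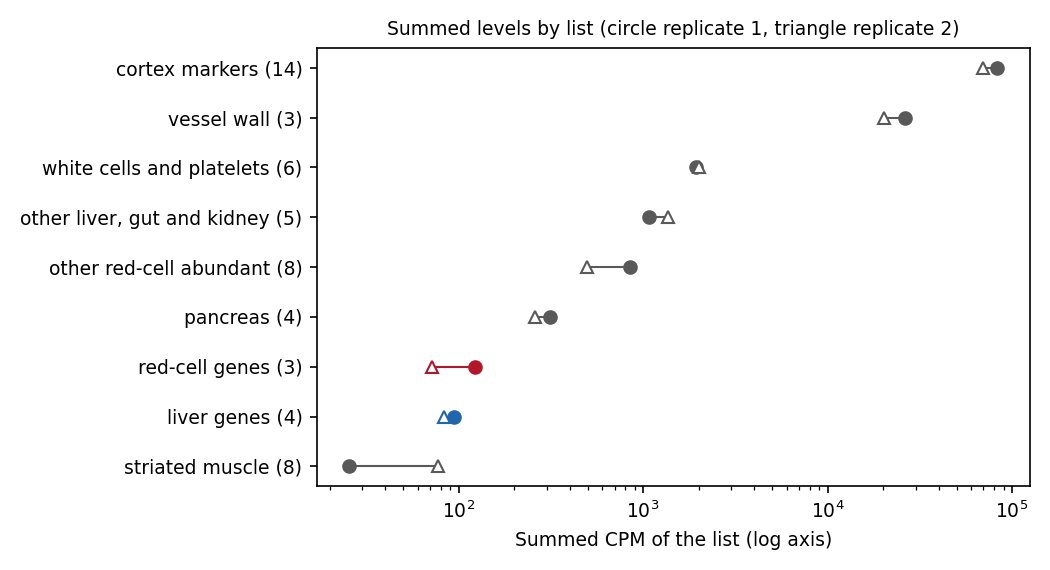
Summed CPM of each list (log axis) in replicate 1 (filled circles) and replicate 2 (open triangles), with the number of genes in brackets. The sums of the red-cell genes (122.1 and 71.5 CPM) and the liver genes (94.8 and 83.2 CPM) lie far below those of white cell (1941 and 2008 CPM) and vessel wall genes. Most of the white cell sum is Mir150 and Mir146, and the cells these reads came from were not tested.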

How the data were processed

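The authors deposited raw read counts per miRNA gene, 1 table per library, on mm10 with GENCODE M21 per the deposited file descriptions. No aligner or counter is named in the sources used here. Every table has 3 count columns (without strand and by strand) and 4 lines that name no gene. Those lines held 65.2% and 65.1% of reads and were left out. The stranded column with the larger total was taken as sense, since no header names it. Symbols and coordinates come from GENCODE M21, whose miRNA genes equal the 2202 of the tables.

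CPM is the sense count per 1000000 of the sense total. Ratios add 0.5 to each count and use edgeR 4.0.16 TMM on all genes, which shifted log2 ratios by 0.13 against raw totals (DESeq2 1.42.0 size factors by 0.20). Shares carry Clopper-Pearson intervals (scipy 1.17.1). P-values measure counting noise between 2 libraries. The 7 genes and all lists were chosen with earlier results of these data known. Genes named are the 7, the 2 above and below each by mean CPM, miRNA genes within 10 kb, seed sharers and the highest 3 of each list. Mir802, Mir216b, Mir124a-1, Mir9-1, Mir9-2 and Mir9-3 fall outside this rule and were chosen once their values were known. Of the listed symbols, Mir486b, Mir92a-1, Mir92a-2, Mir142hg and Mir146a matched no gene symbol. Whether these genes stand in the tables under other symbols was not checked. Alternatives varied the count column, the denominator, the threshold, the scaling and the test.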

Additional observations from a re-analysis of the deposited data

Results flagged for a closer look

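On the strand opposite Mir486 there were 8 counts in replicate 1 and 6 in replicate 2, above the limit of 3 counts that a count of 0 allows. They equal the sense counts of Mir3107, which overlaps Mir486 there. Reads with several places in the genome, outside the gene counts, numbered 6203588 in replicate 1 and 5928954 in replicate 2. The tables do not split them by gene, and miR-194-5p, which is present in both Mir194-1 and Mir194-2, is a sequence whose reads would be listed there. Their share at these genes was not tested.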

How the results depend on the processing

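The red-cell sum of 96.8 CPM became 24.5 CPM in the column without strand, where Mir451a and Mir486 are ambiguous with the gene opposite and stand at 0, and 33.7 per 1000000 reads of any kind. The liver sum of 89.0 CPM became 31.0 per 1000000 reads of any kind, a change of denominator. Leaving out 1 replicate gave 71.5 to 122.1 CPM for the red-cell sum and 83.2 to 94.8 CPM for the liver sum. The number of genes expressed was 6 at 1 and at 5 CPM, with either replicate left out and per 1000000 reads of any kind, and 4 in the column without strand. The number called between the libraries was 4 under each scaling, beside 67.1% to 68.7% of all genes tested. These scalings include TMM on filtered genes, which was chosen after seeing the data. With a pooled count of 1 or more it was 3, beside 39.7% of all genes tested. In the column without strand it was also 3, beside 65.8%, and there Mir451a and Mir486 were not tested. In edgeR's exact test it was 0, beside 0.495%, and 26 of 404 genes had an unadjusted p under 0.05. With raw totals all 4 called were higher in replicate 1, with Mir194-2 in place of Mir122, while otherwise 1 was higher in replicate 2 under the scalings tried. Mir122 also missed the threshold with a pooled count of 1 or more (adjusted p = 0.0769, exact binomial test). No ratio changed sign. The ratio of Mir486 was -0.98 with DESeq2 size factors and -0.999 with TMM on filtered genes, both under 2-fold. With 0 counts of Mir194-1 in both libraries, no ratio is given for it. No paired analysis was possible because there is 1 group. Calls between libraries could not be recomputed without a replicate.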
